A study of Drosophila melanogaster with 3 samples.

Results

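The genes described here are the 8 that set up the first broad domains along the head-to-tail axis of the Drosophila melanogaster embryo: bcd, cad and hb, whose products the mother supplies, and the zygotic gap genes Kr, kni, gt, tll and hkb. They were taken by gene name from the Ensembl annotation (release 115, BDGP 6.54), where all 8 names were found, out of 13945 protein-coding genes on the 6 chromosome arms. Every region that overlapped a gene or the 10 kb on either side of it was collected, and this stretch is called the gene's window. The chromatin came from 1 group, a transgenic line that stably carries CG12659 with GFP at its C terminus. Whole embryos of both sexes, collected over 0 to 24 hours of development, were sonicated and the fusion protein was recovered with an antibody against GFP. There were 3 biological replicates and no second genotype, tissue or stage, so each value averages over all cell types and ages of such embryos. As antibody, a second field of the sample labels lists CG12659 itself. The sources used here do not say what drives the fusion gene or whether the replicates came from separate collections of embryos, so the spread between replicates may be technical.

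CG12659 is the fly counterpart of INO80C, a small subunit of the INO80 complex, which slides and remodels nucleosomes and is found at many promoters. In the egg, bcd RNA is held at the anterior pole and its protein forms a gradient, Bicoid blocks translation of the evenly spread cad RNA so that Caudal forms the opposite gradient, and maternal hb RNA is translated in the anterior part only. The gene hb is also transcribed by the embryo as a gap gene, under Bicoid, and is counted here with the maternally supplied ones. These gradients, with the terminal system at both poles, switch on the gap genes in broad bands before the embryo is divided into cells. The gap proteins then repress one another and position the stripes of the pair-rule genes. Gap gene transcription is thus restricted to a brief phase and to part of the embryo, followed by later use in other tissues, and a whole-embryo sample over 0 to 24 hours mixes all of these states.

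Stretches bound reproducibly by the fusion protein lay at bcd and cad and at none of the gap genes' own starts. The authors' set reproducible between replicates (IDR peaks, for irreproducible discovery rate) placed 8 of its 8952 peaks in the windows of bcd and cad, 0 in that of hb and 1 in those of the 5 gap genes together. The 5 sequences below are a selection from these 8 peaks, 1 of them at the start of the neighbouring gene Pomp. Each runs for 300 bases around the summit, the point of highest enrichment in a peak, in the direction of transcription of bcd (minus strand) or cad (plus strand), from the release 6 genome (dm6). They lie at 3R:6759516-6759815 and 3R:6760787-6761086 for bcd, and at 2L:20770453-20770752, 2L:20780809-20781108 and 2L:20787335-20787634 in the cad window. Capitals mark every match, on either strand, to 6 short motifs: CAGGTA (core of the Zelda motif), TAATCC (the Bicoid core), GAGAG (GAGA factor), TATCGATA (the DRE), CGATA (the BEAF-32 core, which also lies within the DRE) and TATAAA (the TATA box).
bcd promoter peak: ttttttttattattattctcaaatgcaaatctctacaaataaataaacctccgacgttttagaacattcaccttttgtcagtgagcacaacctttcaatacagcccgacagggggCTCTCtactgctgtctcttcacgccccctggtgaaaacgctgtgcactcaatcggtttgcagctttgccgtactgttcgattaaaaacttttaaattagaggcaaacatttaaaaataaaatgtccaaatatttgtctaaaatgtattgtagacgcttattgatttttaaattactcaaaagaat
bcd upstream peak: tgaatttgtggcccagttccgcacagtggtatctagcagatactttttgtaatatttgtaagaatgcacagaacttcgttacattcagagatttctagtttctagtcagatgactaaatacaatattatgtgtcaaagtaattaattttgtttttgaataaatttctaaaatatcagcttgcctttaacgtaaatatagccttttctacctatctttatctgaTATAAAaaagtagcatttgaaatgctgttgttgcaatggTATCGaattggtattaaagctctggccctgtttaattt
cad promoter peak: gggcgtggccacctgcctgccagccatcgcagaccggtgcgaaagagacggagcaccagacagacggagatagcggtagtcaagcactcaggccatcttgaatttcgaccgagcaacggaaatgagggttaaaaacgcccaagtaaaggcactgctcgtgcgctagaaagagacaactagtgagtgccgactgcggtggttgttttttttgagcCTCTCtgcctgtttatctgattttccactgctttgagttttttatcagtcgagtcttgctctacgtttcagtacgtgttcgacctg
cad intron peak: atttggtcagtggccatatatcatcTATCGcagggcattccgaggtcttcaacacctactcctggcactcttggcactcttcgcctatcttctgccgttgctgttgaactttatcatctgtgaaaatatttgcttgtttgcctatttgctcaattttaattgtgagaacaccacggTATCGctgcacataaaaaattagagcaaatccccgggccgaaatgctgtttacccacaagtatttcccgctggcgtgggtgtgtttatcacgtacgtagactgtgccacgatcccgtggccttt
Pomp promoter peak: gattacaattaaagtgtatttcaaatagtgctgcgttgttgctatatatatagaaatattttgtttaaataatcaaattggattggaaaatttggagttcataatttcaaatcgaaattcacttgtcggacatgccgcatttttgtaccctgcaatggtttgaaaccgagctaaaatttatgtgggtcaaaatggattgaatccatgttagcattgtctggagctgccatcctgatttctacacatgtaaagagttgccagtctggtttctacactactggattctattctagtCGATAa

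Of these 5 sequences, the bcd promoter peak and the cad promoter peak held 1 GAGAG each and no other match. The bcd upstream peak held 1 CGATA and 1 TATAAA, the cad intron peak held 2 CGATA and the Pomp promoter peak held 1. Such matches are common: 29.7% of all 8952 IDR peaks held GAGAG in a stretch of the same length, 44.9% held CGATA and 44.5% held TATAAA. None of the 5 sequences held CAGGTA, found in 6.12% of the IDR peaks, TAATCC, found in 716 of them, or TATCGATA, found in 8.80%. Of the 4 other IDR peaks of the windows, not printed here, those at Ama and at CG1103 and Skp2 held 1 CAGGTA each. The peak at Ama also held 1 CGATA, and that at CG1103 and Skp2 held 2 CGATA and 1 TATAAA. The peak in the gene dia held 3 GAGAG and 4 TATAAA, some overlapping, and the second summit at Pomp held 4 CGATA. Base composition differed within the set, with a GC content of 35.0% and 31.0% at the 2 bcd peaks, 51.7% and 46.3% at the cad promoter and the cad intron and 34.3% at Pomp, against a median of 37% over all IDR peaks.

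The next 4 sequences are the 300 bases just before the start site of hb and 3 gap genes, where the IDR and pooled lists held no region at all. They stand at 3R:8694601-8694900 for the proximal promoter of hb and at 3L:20694557-20694856 for that of kni, both on the minus strand. Those of gt (minus strand) and tll (plus strand) stand at X:2428968-2429267 and 3R:30852015-30852314, and capitals mark the same motifs.
hb proximal promoter: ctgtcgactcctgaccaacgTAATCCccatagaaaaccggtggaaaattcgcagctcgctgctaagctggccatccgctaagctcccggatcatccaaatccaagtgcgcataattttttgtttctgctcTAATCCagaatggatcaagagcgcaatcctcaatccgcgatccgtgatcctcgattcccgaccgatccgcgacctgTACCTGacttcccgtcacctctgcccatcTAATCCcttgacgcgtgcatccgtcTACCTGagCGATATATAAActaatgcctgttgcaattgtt
kni proximal promoter: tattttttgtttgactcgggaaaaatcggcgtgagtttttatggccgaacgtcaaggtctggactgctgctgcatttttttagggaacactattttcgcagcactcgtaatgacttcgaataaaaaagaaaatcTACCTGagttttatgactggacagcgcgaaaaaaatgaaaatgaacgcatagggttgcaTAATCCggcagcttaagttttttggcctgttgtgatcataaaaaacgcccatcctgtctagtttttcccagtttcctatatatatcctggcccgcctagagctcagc
gt promoter: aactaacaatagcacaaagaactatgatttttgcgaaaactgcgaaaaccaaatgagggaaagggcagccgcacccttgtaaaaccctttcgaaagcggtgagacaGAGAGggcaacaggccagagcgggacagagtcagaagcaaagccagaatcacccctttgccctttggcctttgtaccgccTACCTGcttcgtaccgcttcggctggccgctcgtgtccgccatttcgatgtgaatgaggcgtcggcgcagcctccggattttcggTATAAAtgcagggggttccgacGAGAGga
tll promoter: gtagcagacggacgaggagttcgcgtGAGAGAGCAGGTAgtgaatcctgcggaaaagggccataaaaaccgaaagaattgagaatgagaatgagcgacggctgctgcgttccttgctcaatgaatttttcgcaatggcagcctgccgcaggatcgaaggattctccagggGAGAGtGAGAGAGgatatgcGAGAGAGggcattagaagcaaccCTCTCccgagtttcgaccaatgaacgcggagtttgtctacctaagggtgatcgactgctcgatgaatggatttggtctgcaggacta

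The hb promoter, a textbook target of Bicoid, held 3 TAATCC, 2 CAGGTA, 1 CGATA and 1 TATAAA. The kni promoter held 1 CAGGTA and 1 TAATCC, the gt promoter 1 CAGGTA, 2 GAGAG and 1 TATAAA, and the tll promoter 1 CAGGTA and 8 GAGAG, some of which overlap. Over the same length before the start sites of 13944 protein-coding genes, CAGGTA was in 6.73%, TAATCC in 9.36%, GAGAG in 29.5%, CGATA in 46.1% and TATAAA in 47.5%. CAGGTA was also in the 300 bases before the first start of cad, and it was absent from those of bcd, of hkb and of the distal starts of hb and kni. The 4 printed promoters are thus those with CAGGTA among the ones searched at hb and the gap genes, and Kr was not searched. Among the promoters not printed, GAGAG had 4 matches at each distal start of hb and kni, 2 at hkb and 1 each at bcd and the first start of cad. These matches describe letters and not binding. GC content of the 4 promoters was 50.7% (hb), 41.7% (kni), 53.7% (gt) and 51.7% (tll), above the median of 37.3% over all promoters.

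The 3 maternally supplied genes were covered unevenly: cad and bcd carried several regions each and hb carried next to none. The Bicoid gene bcd (FBgn0000166, 3R:6755842-6759466, minus strand) lies in the Antennapedia complex, and its window held 3 IDR peaks and 9 regions of the pooled list, which the authors called on the 3 replicates together. The lists of replicates 1, 2 and 3 had 9, 10 and 6 regions there. The Caudal gene cad (FBgn0000251, 2L:20770731-20783135, plus strand) is the longest of the 8 at 12405 bp, and its window held 5 IDR peaks and 12 pooled regions, with 11, 9 and 9 in the replicates. The window of hb, which encodes the zinc finger protein Hunchback (FBgn0001180, 3R:8690980-8697822, minus strand), held 0 IDR peaks, 0 pooled regions and 0, 0 and 4 regions in replicates 1, 2 and 3.

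**Figure D1:**
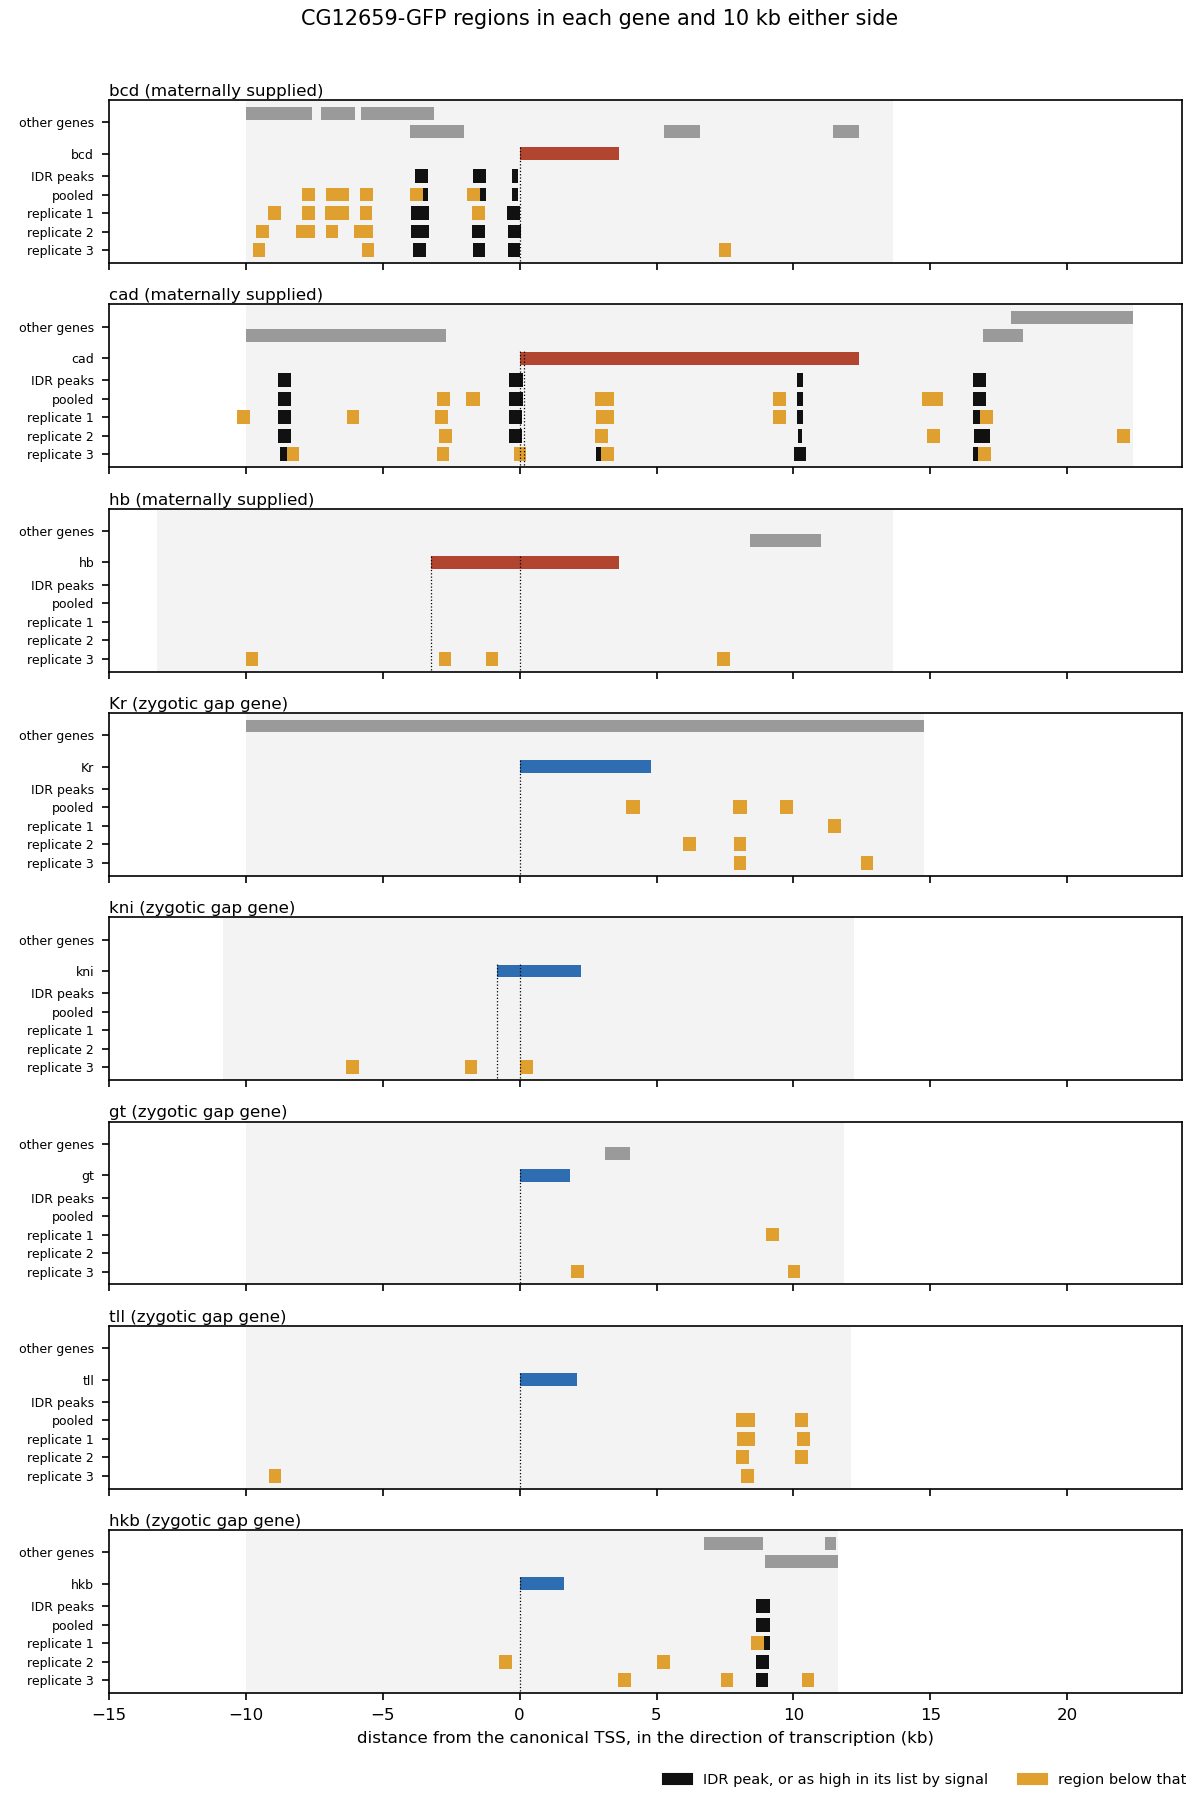
Regions in the window of each of the 8 genes, by list, against distance from the canonical start site in the direction of transcription (kb); grey shading is the window, coloured bars the gene, grey bars other genes and dotted lines the gene's start sites. IDR peaks, and regions as high in their own list, are black and regions below that orange: bcd and cad carry black regions at their start, hb, Kr, kni, gt and tll carry none in any list, and the black region near hkb lies 8.89 kb away.

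At the start of bcd, a peak of 215 bp (3R:6759543-6759757) had its summit 199 bp upstream of the transcription start site (TSS). The authors' signal, a score for enrichment that is used here only to order regions within a list, was 444 (rank 3179 of 30000 in the pooled list). The region over it had a signal of 191 in replicate 1 (rank 3362), 135 in replicate 2 (rank 3536) and 123 in replicate 3 (rank 2596). It was thus among the 8952 highest regions, as many as there are IDR peaks, of each replicate. Among the 5903 protein-coding genes with an IDR peak at a TSS, bcd came 3098th by signal, between C901 (444.5) and CG9084 (443.9), so its level was near the middle of all such genes.

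The second bcd peak lay in intergenic sequence 1470 bp upstream (3R:6760691-6761180) and was weaker, with a signal of 219 and rank 7597. Its replicate signals were 84.1 (rank 8962), 91.3 (rank 6058) and 48.5 (rank 8042), so that it fell just below the 8952 highest regions in replicate 1. The third, at 3R:6762793-6763282, was the strongest of the window with a signal of 492, but it lay 3572 bp from bcd, at the start of Ama, which encodes the immunoglobulin-domain protein Amalgam, and of lncRNA:CR45593. Its ranks were 2538, 2208 and 3834 in replicates 1, 2 and 3. Farther upstream, weak pooled regions lay at the starts of lncRNA:CR44930 and lncRNA:CR42721, with signals of 51.5 to 123. Downstream of the bcd start, the window held no IDR or pooled region. Replicate 3 alone listed 1 there, 7500 bp downstream.

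The start of cad carried an IDR peak near the weak end of the set, whose lowest signal was 184.6. It lay at 2L:20770357-20770846 with its summit 129 bp upstream of the first TSS, a signal of 198 and rank 8370. Replicates 1 and 2 listed it at 86.1 (rank 8746) and 81.8 (rank 6919), inside their 8952 highest. In replicate 3 the matched region stood at 23.2 (rank 18711 of 28466), far below that limit of 43.5, with its summit 5 bp inside the gene. By signal cad came 5749th of the 5903 genes, between CG2162 (198.3) and CG9896 (198.3). The promoter of bcd was therefore high in all 3 replicates and that of cad in 2.

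The other peaks of the cad window were stronger than that at its start. A narrow peak of 227 bp in the second and last intron of cad (2L:20780851-20781077), 10.1 kb downstream of the closest cad TSS, had a signal of 362 and ranks of 4525, 3240 and 6182 in replicates 1, 2 and 3. In the second intron of the neighbouring formin gene dia, 8578 bp upstream of cad, a peak at 2L:20761908-20762397 had a signal of 274 and ranks of 7232, 6020 and 4864. The highest region of all 8 windows lay at 2L:20787285-20787753, at the start of Pomp, which encodes a proteasome maturation factor. The authors gave it 2 summits with signals of 734 and 425, both matched by the same replicate regions at ranks 889, 1270 and 1747. Just below the IDR peaks came an intron region of cad 2842 bp downstream of the closest TSS, with a pooled signal of 142 and rank 11316, among the 8952 highest in replicate 3 only (51.2, rank 7605).

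At hb the only regions came from replicate 3, whose list was the shortest of the 3. The strongest had a signal of 31.6 (rank 12617) and lay 493 bp downstream of the distal of the 2 hb start sites. The others lay 1004 bp upstream of the proximal start site, 7.45 kb downstream and 6.56 kb upstream, with signals of 21.5, 18.8 and 29.6. None had a counterpart in the lists of replicates 1, 2 or the pool. The nearest IDR peak to hb, at the start of CG8112, was 15.1 kb away, and the nearest pooled region was 14.3 kb away, farther than for all but 6.53% of protein-coding genes.

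**Figure D2:**
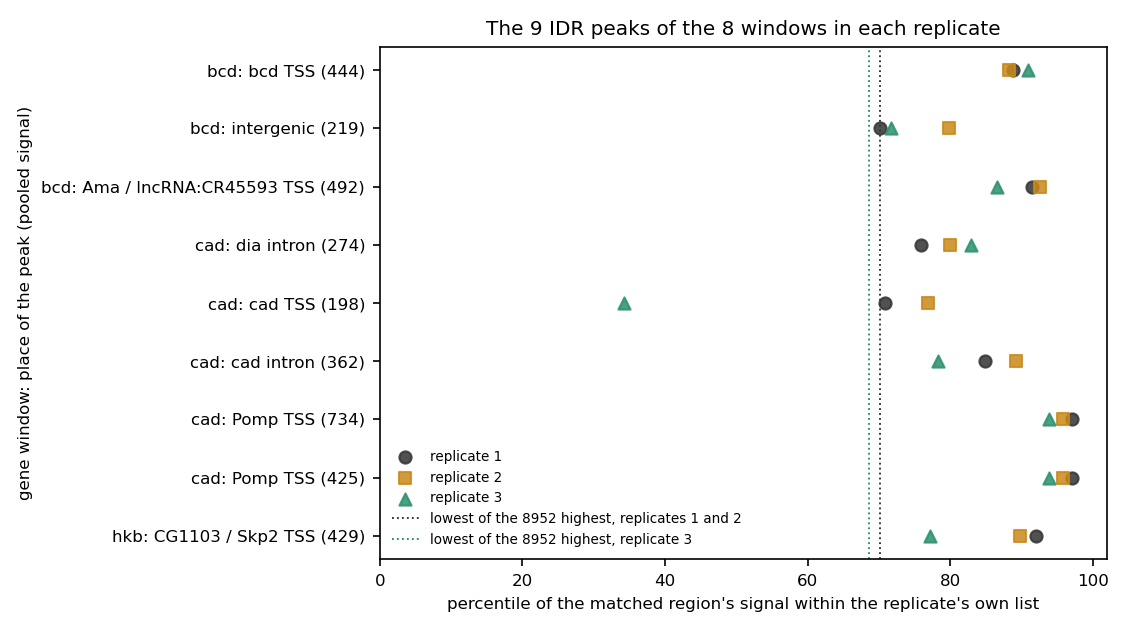
Percentile of the matched region's signal within each replicate's own list (horizontal axis) for the 9 IDR peaks of the 8 windows, with the window and the place of the peak on the vertical axis and the pooled signal in brackets; dotted lines mark the lowest of the 8952 highest regions of a list. Of the 9 peaks, 7 lie above the line in all 3 replicates; the peak at the cad start falls to percentile 34.3 in replicate 3, and the peak upstream of bcd lies just under the line in replicate 1.

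None of the 5 gap genes had an IDR or pooled region at its own start, and the 1 IDR peak in their windows lay at the start of other genes. The gene for the terminal repressor Huckebein, hkb (FBgn0261434, 3R:4345015-4346646, minus strand), had this peak 8887 bp downstream of its TSS, at the shared start of CG1103 and the F-box protein gene Skp2 (3R:4337514-4338003). Its signal was 429, and its replicate signals were 232 (rank 2389), 147 (rank 3064) and 59.9 (rank 6497). Close to hkb itself, replicate 2 alone listed a region 501 bp upstream of the start, with a signal of 25.6 (rank 22624).

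The gene tll (FBgn0003720, 3R:30852315-30854400, plus strand), which encodes the nuclear receptor Tailless of the embryonic poles, had 3 pooled regions, all in intergenic sequence downstream. They lay 8.16, 8.36 and 10.3 kb from the start, with signals of 128, 106 and 110, the strongest at rank 12417. The first had matched regions of 50.1 (rank 14533), 47.4 (rank 12058) and 26.9 (rank 15397) in replicates 1, 2 and 3, so it was listed each time and never among the 8952 highest. The nearest IDR peak to tll was 34.8 kb away, at the start of cindr.

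The zinc finger gene Kr (FBgn0001325, 2R:25226611-25231394, plus strand), named for the Krüppel mutant that lacks the middle of the body, lies inside CG9380 and had 3 pooled regions, all weak. One lay in its 3′ UTR (signal 53.0) and another in the surrounding intron 9739 bp downstream (55.2), and no replicate list had a matched region for these. The third, 8049 bp downstream, had a pooled signal of 69.9 and a match in replicate 2 (19.5, rank 29599) and replicate 3 (20.9, rank 21671), near the bottom of the first of these lists. The nearest IDR peak to Kr was 26.7 kb away, at the start of CG30428.

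The genes kni (FBgn0001320, 3L:20692330-20695378, minus strand), which encodes a zinc finger protein related to nuclear receptors and acts in the abdomen, and gt (FBgn0001150, X:2427113-2428967, minus strand), which encodes a bZIP repressor, had 0 IDR peaks and 0 pooled regions. Replicate 3 listed 3 regions in the kni window, 1 of them 256 bp downstream of the proximal start site with a signal of 18.8 (rank 25145 of 28466). It listed 2 in the gt window, and replicate 1 listed 1 there, 9233 bp downstream (27.1, rank 25794). All 6 stood below the 8952 highest of their lists. The nearest pooled region was 15341 bp away for kni and 15037 bp for gt, where it was the IDR peak at the start of tko, a mitochondrial ribosomal protein gene.

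Set side by side, the maternally supplied genes had 8 IDR peaks over 82.9 kb of window and the gap genes 1 over 113 kb. The Pomp region was counted at both of its summits, and with overlapping peaks merged all windows together held 8 peaks rather than 9. The densities were 0.965 against 0.0882 per 10 kb, a difference of 0.877 with no replicates of the IDR list to test it. Each replicate was then measured in the same way, with its 8952 highest regions. The maternally supplied genes had 0.845, 1.09 and 0.845 regions per 10 kb in replicates 1, 2 and 3, and the gap genes had 0.0882 in each. All of that gap value was 1 region per replicate, at the start of CG1103 and Skp2 in the hkb window. No gap gene had such a region at its own start. Each value of the maternally supplied genes was above every value of the gap genes. The mean was 0.925 ± 0.139 per 10 kb for the maternally supplied genes and 0.0882 ± 0 for the gap genes (SD, n = 3), and the difference of 0.837 ± 0.139 had an exact two-sided sign-flip permutation p of 0.25, the smallest that 3 pairs can give. The 3 pairs share the same 8 genes, so this p speaks of replicates only, and genes are not replicates of a class.

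The 3 maternally supplied genes differed among themselves by more than the difference between the sets. The IDR density was 1.27 per 10 kb at bcd, 1.54 at cad and 0 at hb, and at the gap genes it was 0 at Kr, kni, gt and tll and 0.462 at hkb. With hb counted with the gap genes the difference was 1.36, and with hb left out it was 1.34. Without the regions at other genes' starts it was 0.603, since 4 of the 9 IDR peaks, 44.4% (95% exact interval 13.7 to 78.8, counting error only), lay at the TSS of another gene. Both summits of the same Pomp region are among these 4, although the interval takes peaks as independent. Without cad, a choice made after seeing the data, the difference was 0.506. The direction was the same each time.

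**Figure D3:**
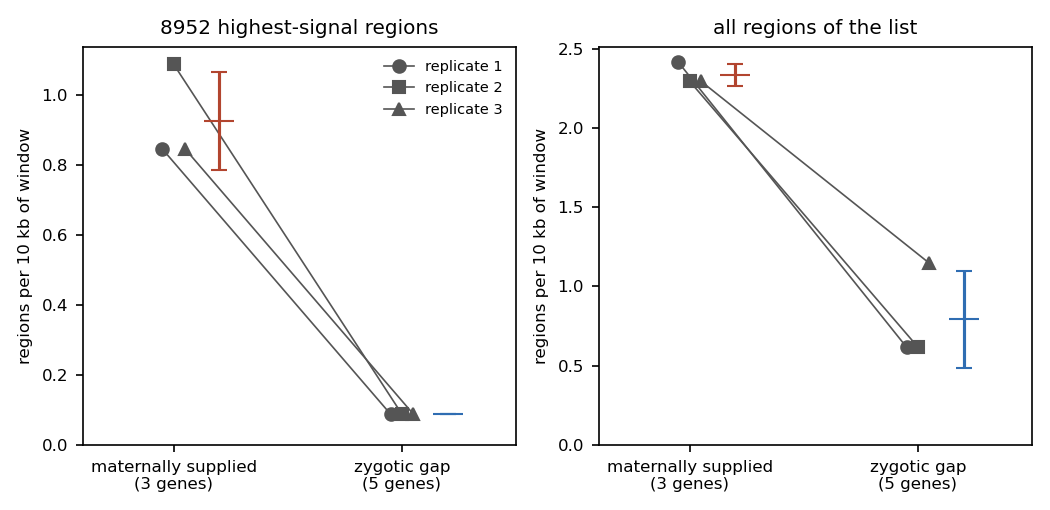
Regions per 10 kb of window in each replicate (grey symbols, joined within a replicate) for the 3 maternally supplied and the 5 gap genes, with mean and SD (n = 3) beside them; left, the 8952 highest regions of each replicate, right, all regions of its list. The maternally supplied genes lie between 0.845 and 1.09 on the left and the gap genes at 0.0882, and on the right replicate 3 has 1.15 for the gap genes against 0.617 in the others.

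The order of the sets was the same with every listed region, weak ones that may be background included. With all regions of each list, the maternally supplied genes had 2.41, 2.29 and 2.29 per 10 kb in replicates 1, 2 and 3, and the gap genes 0.617, 0.617 and 1.15. The difference was 1.54 ± 0.346 (SD, n = 3), with the same exact p of 0.25. Replicate 3 stood apart by its 13 gap-window regions against 7 in each of replicates 1 and 2, and it held 17 of the 28 regions that matched no pooled region. In 3 of those 28 cases another replicate had a matching region. In the pooled list, 13 regions outside the IDR set lay in the maternally supplied windows and 6 in the gap windows. Of these 19, 8 were matched in all 3 replicates and 3 in none. Several of the 8 overlapped a stronger pooled region and were matched by the same replicate regions as that one, so they are not 8 separate places.

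Against all protein-coding genes, bcd and cad had a peak at the start while hb and the 5 gap genes had none. An IDR peak lay within 500 bp of an own TSS at 2 of the 8 (bcd and cad), while 42.3% of the 13945 genes had one. With the 4476 IDR peaks of higher signal it lay there at 1 of the 8 (no share of all genes is given for this smaller set). IDR was not rerun without a replicate. With replicate 1 or replicate 2 left out, a high region shared by the remaining replicates lay there at 1 of the 8. For these smaller sets, too, no share of all genes is given. A pooled region lay at an own TSS of bcd and cad, against 57.9% of all genes. A region among the 8952 highest of all 3 replicates lay there at bcd alone, against 36.3%. At hb and kni the only regions at a start were those of replicate 3, and at Kr, gt, tll and hkb no list had one. In the whole window, 3 of 8 genes (bcd, cad and hkb) had an IDR peak, against 79.1% of all genes, and 5 of 8 had a pooled region, against 91.6%. The 2 of 8 at start sites is a small count whose distance from the share of all genes was not tested.

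The median number of IDR peaks per window was 3 for the maternally supplied genes, 0 for the gap genes and 3 over all protein-coding genes. Pooled regions had medians of 9, 1 and 7. Distance to the nearest IDR peak had a median of 0.199 kb for the maternally supplied genes and 16.2 kb for the gap genes, against 1.79 kb over all genes, and distance to the nearest pooled region 0.199, 8.89 and 0.242 kb. So bcd and cad stood near the typical gene and hb and the gap genes at the far side. A greater distance to a pooled region was found for 6.53% of all genes in the case of hb, 5.89% for kni, 6.05% for gt, 12.6% for tll, 11.5% for hkb and 21.1% for Kr.

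**Figure D4:**
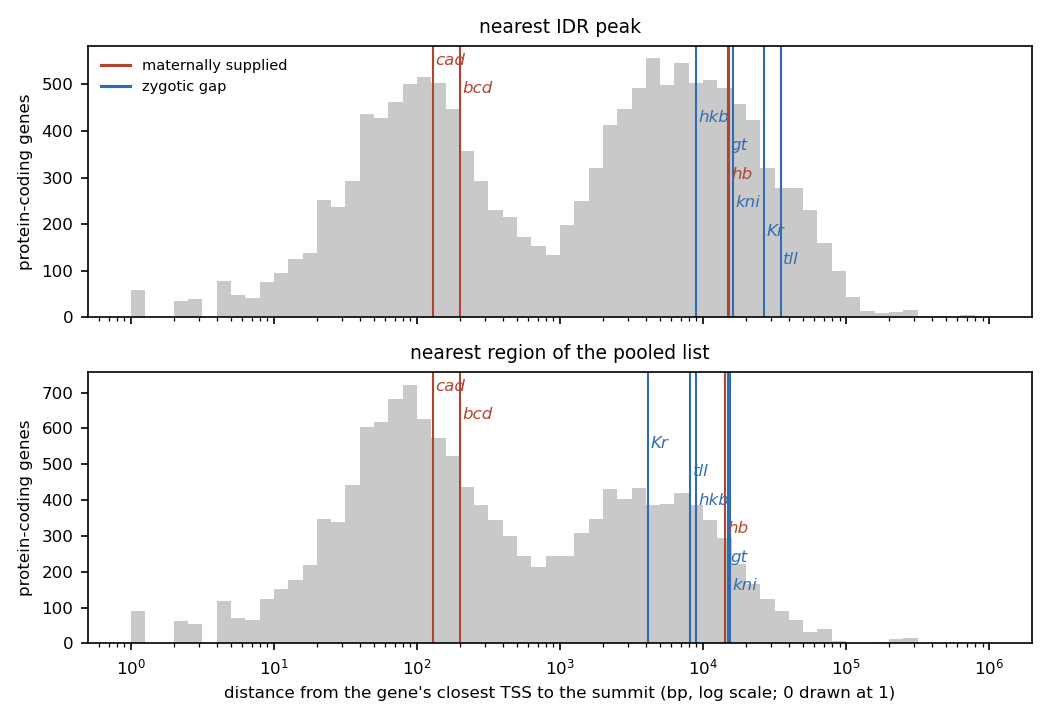
Distance from a gene's closest TSS to the nearest summit (log scale, bp) for all protein-coding genes (grey, number of genes per bin) and for the maternally supplied (red lines) and gap genes (blue lines); above, IDR peaks, below, pooled regions. In both panels bcd and cad lie among the genes with a region at the start, at 199 and 129 bp, and hb lies among the gap genes, 15.1 kb from an IDR peak and 14.3 kb from a pooled region.

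Most of the windows had few neighbours. The number of other genes with a TSS in the window was 6 for bcd, 1 for cad, 2 for hb, 0 for Kr, kni and tll, 1 for gt and 3 for hkb, a median of 1, against 6 over all protein-coding genes. IDR peaks in these windows numbered 3 for bcd, 5 for cad, 1 for hkb and 0 for the others. Among the 347 protein-coding genes with 0 such neighbours, 32.9% had an IDR peak in the window and 11.0% at an own TSS, and the nearest IDR peak had a median distance of 20.6 kb. Among the 6873 with 0 to 5 such neighbours, as at 7 of the 8, the shares were 69.8% and 33.8% and the median distance 3.86 kb. Only Kr, kni and tll belong to the 347. Their nearest IDR peaks were 26.7, 16.2 and 34.8 kb away, beside the 20.6 kb. The nearest pooled region had a median of 3.60 kb among those 347 genes, and 73.5% of them had one in the window. For Kr, kni and tll it was 4.14, 15.3 and 8.16 kb away. The part of neighbouring genes in the difference between the 8 genes and all genes was not tested.

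Genes that act beside these 8 were counted in the same way, in 3 lists whose differences were not tested. The first list held 17 maternal effect and terminal system genes, among them genes that localise bcd and posterior RNAs or carry the Torso signal to tll and hkb. Of these 17, 13 had an IDR peak at a TSS (76.5%, beside 42.3% of all protein-coding genes), and 7 of these peaks were shared with the start of another gene. The strongest were gro, the corepressor Groucho (signal 1457), csw, the phosphatase of the Torso pathway (707), nanos, the posterior translational repressor (680, shared with CG11779), and stau, which anchors bcd RNA (664, shared with Spn55B). Those without were osk, the organiser of the germ plasm, tor, the receptor itself, and trk and tsl, which act in making its ligand. All 17 had an IDR peak in the window, beside 79.1% of all protein-coding genes.

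Of 10 zygotic head gap genes and late gap-like genes, cnc alone had an IDR peak at a TSS (10%, signal 542), beside 42.3% of all protein-coding genes. At oc, btd and croc a pooled region lay there below the IDR set (100.6, 85.7 and 87.2). With cnc, 4 of the 10 thus had a pooled region at a TSS, beside 57.9% of all protein-coding genes. The remaining 6, ems, slp1, slp2, knrl (the neighbour and relative of kni), nub and pdm2, had none. An IDR peak lay in the window of 8 of the 10, with a median of 1.5, close to the 79.1% of all protein-coding genes that had one, whereas 1 of the 5 gap genes did. Of 7 early activators and cofactors of zygotic transcription, 5 had an IDR peak at a TSS (71.4%, beside 42.3% of all protein-coding genes). These were Trl, the GAGA factor (signal 909), and CtBP, a corepressor used by Krüppel, Knirps and Giant (583, shared with CG8031). The others were Clamp (426, shared with lncRNA:CR44809), Stat92E (309) and nej, the fly CBP (272). The gene for the pioneer factor Zelda, zld, had a pooled region only (72.4), and the pair-rule gene opa had no region in its window, the nearest pooled one being 31.2 kb away.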

How the data were processed

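Regions called for CG12659-GFP were deposited as lists per replicate, for the 3 replicates together (pooled) and as an IDR set, all set against 1 control alignment that was not analysed here, per the file notes. The authors name the pooled list as peaks and background used as input for IDR, so its weak regions may be background. The value used is the signal score of each region as the authors deposited it. Caller, aligner and IDR threshold: not given in the sources used here. No read counts come with the lists, so depth is unknown. The 5 lists on dm6 were used and those on dm3 were not. The lists held 8952 IDR peaks, 30000 pooled regions and 30000, 30000 and 28466 regions in replicates 1, 2 and 3. The repeated count of exactly 30000 may be a set limit, and weak regions of the replicate lists may be background too. Coordinates were made 1-based and set against Ensembl release 115 (BDGP 6.54), and sequence came from the RefSeq copy of release 6.

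A region belonged to a window by any overlap and to a TSS by a summit within 500 bp. A region matched another by an overlap of 50% of the shorter one, with the strongest taken. Densities are regions over summed window length, compared within each replicate by exact sign flips. Named genes were the 8, every gene with a TSS at an IDR peak of a window, the up to 4 strongest of each pathway list and, for bcd and cad, the neighbours by signal. The host gene dia, and the genes at the nearest IDR peak or at weaker regions of a window, were named after their values were seen. The pathway name nos matched no gene, and nanos did. Members and lists were chosen with earlier results of these data known. Alternatives were other TSS distances, windows, signal limits, classes of hb and replicates left out. With a replicate left out, IDR was not rerun. Regions among the 8952 highest of both remaining replicates, matched by the same overlap, stood in for the IDR set. They numbered 7530, 7509 and 7771 without replicates 1, 2 and 3. Scripts were tested on simulated data. The tools used were matplotlib 3.10.9 for figures, scipy 1.17.1 for intervals, pandas 2.3.3 and numpy 2.4.6 for tables, under Python 3.11.15.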

Additional observations from a re-analysis of the deposited data

How the results depend on the processing

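Of the 8 genes, 2 had an IDR peak at an own TSS, and 1 did (bcd) with the 4476 IDR peaks of higher signal. When 1 replicate at a time was left out, high regions shared by the other 2 replaced the IDR peaks, as IDR was not rerun. Between 1 and 2 genes then had one at an own TSS (1 without replicate 1, 1 without replicate 2, 2 without replicate 3). The 4476 peaks and the shared regions are smaller sets than the IDR set, and no share of all genes is given beside them. The 9 IDR peaks in the windows became 2 within the genes alone and 8 with overlapping peaks merged. With a replicate left out, 7 to 9 shared regions lay there. The density difference of maternally supplied minus gap genes, 0.877 per 10 kb in the IDR set, was 1.32 with 5 kb either side, 1.36 with hb among the gap genes, 1.34 with hb left out, 0.603 without regions at other genes' starts, 0.515 with those 4476 peaks, 0.636 to 0.877 with a replicate left out (lowest without replicate 2) and, chosen after seeing the data, 0.506 without cad. Its direction was the same in these alternatives, and why the values moved was not tested. The difference per replicate was positive in all 12 alternatives, from 0.343 with the 4000 highest regions to 1.54 with all regions. The lists carry no read counts, so depth is unknown. A region that is not listed at hb or a gap gene may have fallen below the end of a list. The lowest signals were 48.7 in the pooled list and 22.9, 19.2 and 17.2 in replicates 1, 2 and 3.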
